A study of Mus musculus with 24 samples.

Results

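The genes described are 6 that encode immune checkpoint ligands and the receptor 4-1BB: Cd274, Tnfrsf9, Cd47, Pvr, Lgals9 and H2-T23. They were chosen by gene symbol, with earlier results of these data known. All 6 of the 6 listed genes had a row with counts among 15738 named genes. The cells were B16F10, a pigmented mouse melanoma line whose labels give skin as its tissue. There were 4 genotypes: the control (ctrl-KO in the protocol, genotype WT in the labels), koRnf31, koAtg5 and koRnf31-koAtg5, called the double knockout below. Cells in 6-well plates received vehicle or TNFα at 2 ng/ml for 24 h, which gave 8 groups of 3 libraries, 24 in all. Whether the lines were clones or pools, and where the genes were edited, is not given in the sources used here. Each genotype is therefore read as a cell line, and the loss of a gene and other differences between the lines cannot be told apart in any comparison of genotypes. Rnf31 makes the linear ubiquitin chains that relay the signal of TNF receptors, and Atg5 takes part in the lipidation of LC3 in conventional autophagy.

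Tumour cells carry surface and secreted proteins that restrain immune cells. Cd274 encodes PD-L1, which binds PD-1 on T cells. Cd47 is the signal read by SIRPα on macrophages, and Pvr encodes CD155, a ligand of the inhibitory receptor TIGIT and of the activating receptor CD226. Lgals9 encodes galectin-9, a lectin that binds TIM-3, and H2-T23 encodes Qa-1, the non-classical MHC class I heavy chain seen by the NKG2A receptor of NK and T cells. Tnfrsf9 is of another kind: it encodes 4-1BB, a costimulatory receptor of the TNF receptor family best known on activated T cells, whose ligand is Tnfsf9. Interferons are known inducers of Cd274, Lgals9 and MHC class I genes, and NF-kB is a known regulator of Tnfrsf9.

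Library totals over named genes ran from 19425795 to 33385502 counts, and 13527 genes passed the filter on low counts, all 6 members among them. Levels are given as CPM, counts scaled to library size with TMM factors. Control vehicle replicate 2 stood apart from its group: its chi-square per degree of freedom against the other two was 30.04 and 19.0, and every other pair within a group lay at or below 8.57. Leaving it out changed no call of a member in the comparisons that use its group. Atg5 transcripts averaged 54.7 CPM in control vehicle libraries, 22.2 in the Atg5 knockout and 25.3 in the double knockout. Rnf31 averaged 9.79 CPM in control, 13.2 in the Atg5 knockout, 8.04 in the Rnf31 knockout and 6.62 in the double knockout, so counts per gene check these labels only in part. The sources used here do not say whether replicates were grown separately, so each p-value reflects only how far these libraries differ, which may be technical.

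The stretches of DNA before 3 of the genes are shown because they hold matches to the NF-kB or interferon motifs; whether a match bears on how a gene moved was not tested. Sequences and start sites are from the RefSeq table of promoters (GRCm38.p6), which matched 5 of the 6 members, and each is written 5′ to 3′ on the strand of its gene. The windows searched were the 250 bases before each start site, on both strands. Capitals mark a match, on either strand, to the interferon-stimulated response element, searched as GAAA and GAAA with NN between them, or to a kappaB motif, searched as GGGNNTTCC or in a longer form with NNN between GGG and TTCC. The upstream stretch of Lgals9 that lies outside annotated exons (chr11:78984947-78985174, minus strand) held a kappaB match starting 128 bases and an interferon element match starting 55 bases before the start site.
Lgals9: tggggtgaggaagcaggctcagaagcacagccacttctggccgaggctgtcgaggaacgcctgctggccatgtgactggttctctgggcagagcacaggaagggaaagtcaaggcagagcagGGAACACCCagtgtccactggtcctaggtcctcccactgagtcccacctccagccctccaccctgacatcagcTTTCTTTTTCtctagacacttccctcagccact
The 30-base stretch of Tnfrsf9 (chr4:150927946-150927975, plus strand) holds a kappaB match that starts 43 bases before the second of its start sites in the table, within an exon of the GENCODE annotation, and the shorter kappaB motif matched inside the same letters.
Tnfrsf9: cagagcagctGGGGATTTCCcaggaggccc
The 30-base stretch of H2-T23 (chr17:36032806-36032835, minus strand) holds an interferon element match that starts 124 bases before its RefSeq start, also within a GENCODE exon.
H2-T23: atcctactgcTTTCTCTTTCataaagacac
A gamma-activated site, written TTCNNNGAA, matched 136 bases before the same start site of Tnfrsf9. Windows of Cd274 and Cd47, and that of the first start site of Tnfrsf9, held none of these letters. Over 32851 windows of 250 bases, GGGNNTTCC was present in 4.98%, the longer kappaB form in 4.65%, the interferon element in 2.98% and TTCNNNGAA in 7.02%. A match describes the letters only; binding was not measured.

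With no TNFα added, all 6 members were higher in the Atg5 knockout than in control. Tnfrsf9 and H2-T23 went from 27 and 50 counts over the 3 control libraries to 7057 and 1305, Lgals9 and Pvr rose 3.14-fold and 2.64-fold, and Cd47 and Cd274 rose 2.08-fold and 1.74-fold. Of all 13527 genes tested, 62% were called in this comparison and 31.3% were called higher, at an adjusted p under 0.05 (edgeR quasi-likelihood test, Benjamini-Hochberg over all genes tested). Since the members were chosen with earlier results of these data known, their counts beside such shares are descriptions and not tests. In the double knockout 5 members were higher than in control, where 52.4% of genes were called and 25.3% called higher, and the member not called was Cd274. Only Lgals9 was called in the Rnf31 knockout, where it was lower; 45.6% of genes were called there and 21.5% were called lower. In bulk RNA, fewer cells that carry a transcript and less of it per cell cannot be told apart.

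**Figure D1:**
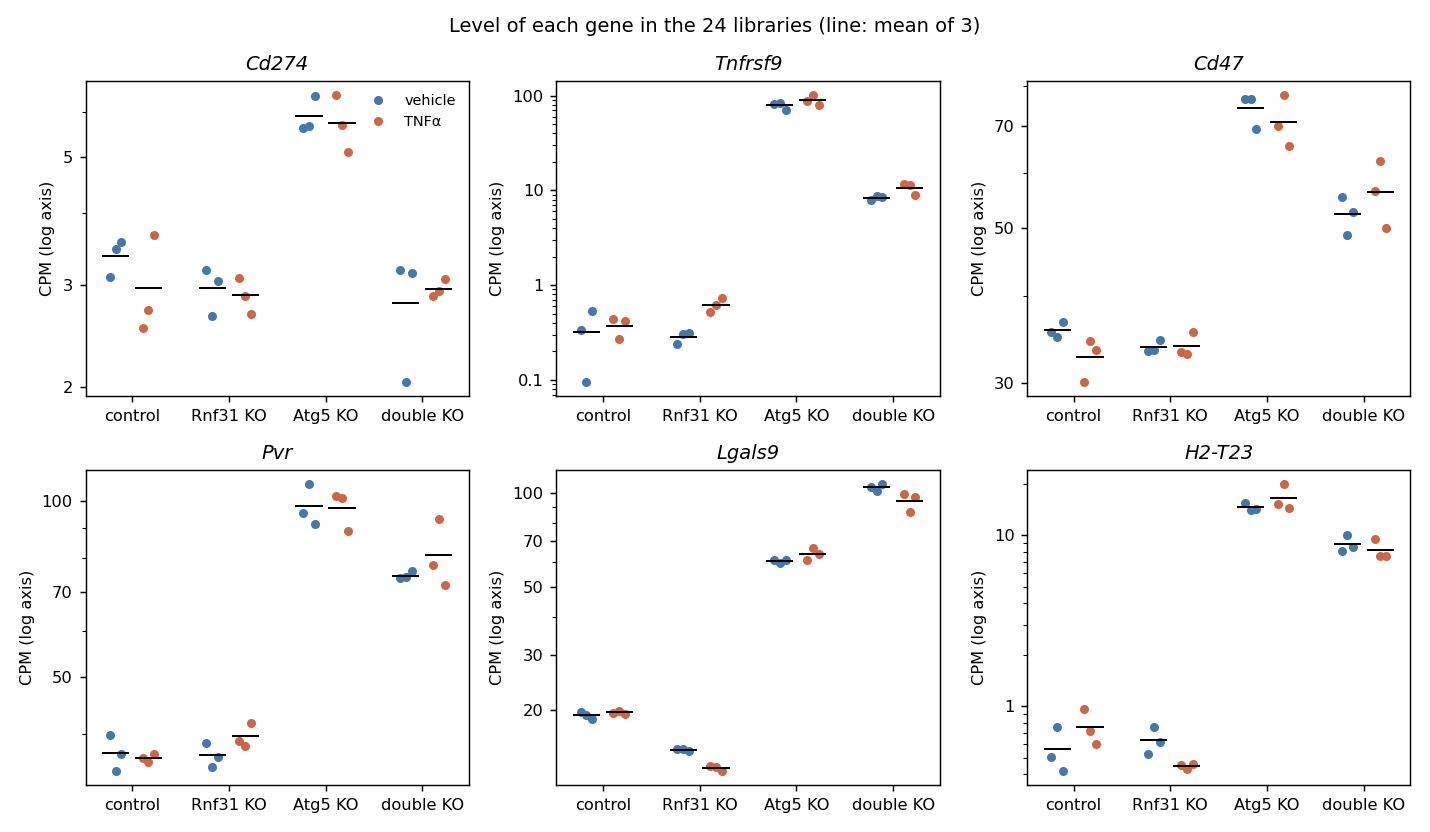
Level of each of the 6 genes in the 24 libraries, as CPM on a log axis that differs between panels, by genotype (x axis) and treatment (colour), with a black line at the mean of 3 libraries. The highest group of each gene lacked Atg5, and in the double knockout Cd274 lay at the control level (2.79 CPM with vehicle) while Lgals9 lay above the Atg5 knockout (104 against 60.4 CPM).

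Tnfrsf9, the 4-1BB receptor gene (GRCm38 chromosome 4, 150914562 to 150946102, plus strand, protein-coding), was nearly silent in control cells. The 3 control vehicle libraries had 10, 3 and 14 counts, or 0.337, 0.0952 and 0.536 CPM, and the 3 Rnf31 knockout vehicle libraries had 6, 8 and 10 counts, or 0.242, 0.303 and 0.311 CPM. Atg5 knockout vehicle libraries had 2691, 2488 and 1878 counts, or 82.3, 83.4 and 71.3 CPM, and those of the double knockout had 212, 251 and 236 counts, or 7.86, 8.67 and 8.45 CPM. Every Atg5 knockout library was above every double knockout library, and both groups were above all control and Rnf31 knockout libraries. From summed counts, the Atg5 knockout stood 257-fold above control (95% interval 176 to 390, counting error only) and the double knockout 26.96-fold above it (18.4 to 41.2). The log2 fold changes ± SE were 7.97 ± 0.17 (adjusted p = 1.32e-23) and 4.73 ± 0.22 (adjusted p = 4.14e-16, edgeR). Without control vehicle replicate 2, the library with 3 counts, they were 7.50 and 4.26. Its ligand Tnfsf9, a costimulatory molecule for T cells, also rose: it averaged 9.60 CPM in control, 22.1 in the Atg5 knockout and 21.4 in the double knockout (1.20 ± 0.08 and 1.16 ± 0.08, adjusted p = 6.50e-13 and 3.90e-12, edgeR). Between the double and the Atg5 knockout, Tnfsf9 differed by -0.05 ± 0.08 (adjusted p = 0.667), while Tnfrsf9 fell 9.48-fold.

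Cd274, the PD-L1 gene (chromosome 19, 29367455 to 29388095, plus strand, protein-coding), was weakly expressed in every group. Control vehicle libraries read 3.10, 3.46 and 3.56 CPM, Rnf31 knockout libraries 3.18, 2.65 and 3.05, Atg5 knockout libraries 5.63, 5.66 and 6.37, and double knockout libraries 3.19, 2.04 and 3.15. The Atg5 knockout stood clear of the other 3 genotypes, which overlapped each other. Against control the Atg5 knockout was higher by 0.80 ± 0.16 on the log2 scale (adjusted p = 6.34e-05, edgeR), with 168 to 184 counts a library. The double knockout differed from control by -0.27 ± 0.17 (95% interval -0.62 to 0.07, adjusted p = 0.173) and from the Rnf31 knockout by -0.09 ± 0.17 (-0.44 to 0.26, adjusted p = 0.699). Cmtm6, which keeps PD-L1 protein at the cell surface, averaged 26.1 CPM in control, 31.2 in the Atg5 knockout and 31.3 in the double knockout.

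Cd47 (chromosome 16, 49800533 to 49915010, plus strand, protein-coding) read 35.5, 35.0 and 36.7 CPM in control vehicle libraries, 33.3, 33.5 and 34.6 in the Rnf31 knockout, 76.6, 76.7 and 69.4 in the Atg5 knockout and 55.3, 48.9 and 52.8 in the double knockout. The 2 groups lacking Atg5 overlapped neither each other nor the rest, and the double knockout lay between the Atg5 knockout and control. The log2 fold changes against control were 1.05 ± 0.07 in the Atg5 knockout (adjusted p = 5.17e-13) and 0.55 ± 0.07 in the double knockout (adjusted p = 3.51e-07). In the Rnf31 knockout Cd47 differed by -0.08 ± 0.07 (95% interval -0.23 to 0.07, adjusted p = 0.402), although its libraries did not overlap those of control. Sirpa, the gene of the receptor that reads CD47, averaged 188 CPM in control, 131 in the Atg5 knockout and 182 in the double knockout.

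Pvr, the CD155 gene (chromosome 7, 19903578 to 19921160, minus strand, protein-coding), followed the same order of genotypes as Cd47. Control vehicle libraries read 39.9, 34.7 and 37.0 CPM, Rnf31 knockout libraries 38.6, 35.2 and 36.6, Atg5 knockout libraries 95.6, 107 and 91.6, and double knockout libraries 74.0, 74.1 and 75.9. Control and Rnf31 knockout libraries overlapped, and the Atg5 and double knockouts were apart from them and from each other. Pvr was higher than in control by 1.40 ± 0.08 in the Atg5 knockout, with an adjusted p of 4.45e-15, and by 1.01 ± 0.08 in the double knockout, with an adjusted p of 1.31e-11. Nectin2, another ligand that shares receptors with CD155, rose from 30.7 CPM in control to 45.2 in the Atg5 knockout (0.56 ± 0.07, adjusted p = 9.09e-08) and stood at 34.5 CPM in the double knockout (0.17 ± 0.07, adjusted p = 0.0484, edgeR).

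Lgals9, the galectin-9 gene (chromosome 11, 78962974 to 78984946, minus strand, protein-coding), was the member that moved in every knockout. Control vehicle libraries read 19.7, 19.3 and 18.7 CPM, those of the Rnf31 knockout 14.9, 15.0 and 14.8, those of the Atg5 knockout 61.0, 59.4 and 60.7, and those of the double knockout 105, 102 and 107. No 2 of these 4 groups overlapped. Against control, Lgals9 fell by 0.37 ± 0.06 on the log2 scale in the Rnf31 knockout (adjusted p = 1.46e-05), rose by 1.65 ± 0.05 in the Atg5 knockout (adjusted p = 7.30e-20) and rose by 2.44 ± 0.05, or 5.43-fold, in the double knockout (adjusted p = 1.83e-23, edgeR). Havcr2, the gene of the galectin-9 receptor TIM-3, was low throughout, averaging 2.46 CPM in control and 1.56 in the Atg5 knockout, with 0.859 to 1.14 CPM in libraries of the double knockout.

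H2-T23, the Qa-1 gene (chromosome 17, 36029773 to 36032855, minus strand, protein-coding), belongs to a family of similar class I genes, so how reads common to these genes were divided bears on it; its row was identical to no other. Control vehicle libraries had 15, 24 and 11 counts (0.505, 0.762 and 0.421 CPM) and Rnf31 knockout libraries 13, 20 and 20 (0.524, 0.759 and 0.622 CPM). Atg5 knockout libraries had 507, 421 and 377 counts (15.5, 14.1 and 14.3 CPM) and double knockout libraries 217, 290 and 239 (8.05, 10.02 and 8.56 CPM). Control and Rnf31 knockout libraries overlapped, and each group lacking Atg5 stood apart. By summed counts the Atg5 knockout was 25.6-fold above control (95% interval 19.3 to 34.7, counting error only) and the double knockout 15.5-fold (11.7 to 21.1). Log2 fold changes were 4.67 ± 0.19 (adjusted p = 7.59e-18) and 3.95 ± 0.19 (adjusted p = 1.29e-15, edgeR). B2m, the light chain that Qa-1 needs at the surface, rose by 1.67 ± 0.05 in the Atg5 knockout and by 2.08 ± 0.05 in the double knockout, from 104 CPM in control to 329.5 and 439 CPM (adjusted p = 3.54e-21 and 4.13e-23).

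Levels can be set between genes only per transcript length, here as CPM per kb of the longest annotated transcript. In control vehicle cells Pvr (12.8 CPM per kb) and Lgals9 (12.1) were the most abundant members, followed by Cd47 (6.81), Cd274 (0.931), H2-T23 (0.213) and Tnfrsf9 (0.153). The order changed in the Atg5 knockout, where Lgals9 (38.1), Tnfrsf9 (37.3) and Pvr (33.8) led and Cd274 (1.63) was lowest. In the double knockout Lgals9 (65.8) led Pvr (25.7), Cd47 (9.97), Tnfrsf9 (3.94), H2-T23 (3.36) and Cd274 (0.771). Within these cells the receptor gene Tnfrsf9 thus went from the lowest of the 6 to a level near those of Lgals9 and Pvr in the Atg5 knockout.

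**Figure D2:**
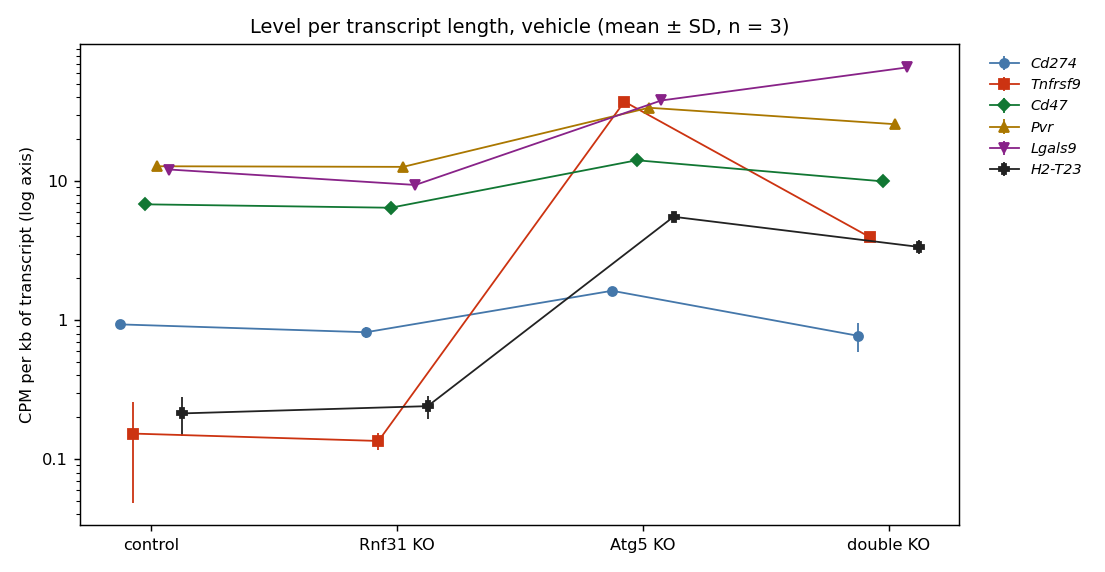
Mean CPM per kb of transcript (log axis, SD of 3 libraries as bars) of the 6 genes in the vehicle groups of the 4 genotypes; lines only join the values of the same gene. Tnfrsf9 spans the widest range, from 0.135 in the Rnf31 knockout to 37.3 in the Atg5 knockout, and Cd274 the narrowest, from 0.771 to 1.63.

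In the double knockout 5 members were lower and 1 was higher than in the Atg5 knockout. With vehicle, 38.1% of all genes tested were called between the double and the Atg5 knockout, 19.8% lower and 18.2% higher. Tnfrsf9 was 9.48-fold lower (-3.24 ± 0.11 on the log2 scale, adjusted p = 8.22e-19) and Cd274 2.11-fold lower (-1.08 ± 0.16, adjusted p = 4.38e-06). H2-T23 was lower by 1.65-fold (-0.72 ± 0.13, adjusted p = 8.66e-05), Cd47 by 1.42-fold (-0.51 ± 0.07, adjusted p = 1.51e-06) and Pvr by 1.31-fold (-0.39 ± 0.07, adjusted p = 9.20e-05). Lgals9 was the exception, at 1.73-fold higher (0.79 ± 0.05, adjusted p = 3.87e-13, edgeR), and no member's libraries overlapped between these groups. How many of all genes were likewise without overlap was not counted. Compared with the Rnf31 knockout, the double knockout was higher for 5 members and not called for Cd274, where 48.1% of genes were called and 22.5% were called higher.

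The same comparison under TNFα gave the same directions. Tnfrsf9 differed by -3.06 ± 0.11 (adjusted p = 2.63e-18), H2-T23 by -1.01 ± 0.14 (adjusted p = 1.22e-06) and Cd274 by -0.95 ± 0.16 (adjusted p = 4.11e-05, edgeR). Lgals9 was higher by 0.57 ± 0.05 (adjusted p = 5.51e-10) and Cd47 lower, at -0.33 ± 0.07 (adjusted p = 4.39e-04). Pvr differed by -0.27 ± 0.07 (adjusted p = 0.00514), and its libraries overlapped: the double knockout read 77.7, 93.2 and 71.9 CPM and the Atg5 knockout 102, 101 and 88.9. That call was lost without double knockout TNFα replicate 3 (-0.18, adjusted p = 0.0766). Of all genes tested, 38.2% were called in this comparison, 18.8% higher and 19.4% lower.

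Whether lines with and without Rnf31 differed by the same amount in the 2 backgrounds was tested directly, in a comparison added after the data were seen. With vehicle, the double minus Atg5 knockout difference less the Rnf31 knockout minus control difference was called for 6 of 6 members, and for 40.7% of all genes (18.9% higher, 21.8% lower). The call of H2-T23 (-0.88 ± 0.32, adjusted p = 0.0285) was lost in 5 of the 24 fits that left out a library, without control vehicle replicate 1 or 3, Rnf31 knockout vehicle replicate 2 or 3, or double knockout vehicle replicate 1 (adjusted p = 0.0529 to 0.121). The difference was largest in size for Tnfrsf9 (-3.14 ± 0.52, adjusted p = 2.67e-05) and opposite in sign for Lgals9 (1.16 ± 0.08, adjusted p = 4.49e-12, edgeR). Tnfrsf9 had only 27 summed counts in control and 24 in the Rnf31 knockout with vehicle, so a fall in that background could hardly be seen. Lgals9 was lower in the Rnf31 knockout than in control and higher in the double than in the Atg5 knockout, and its libraries overlapped in neither case. Under TNFα the difference was called for 5 members, against 30.3% of all genes (14% higher, 16.4% lower), and not for H2-T23 (-0.26 ± 0.34, 95% interval -0.95 to 0.43, adjusted p = 0.604).

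**Figure D3:**
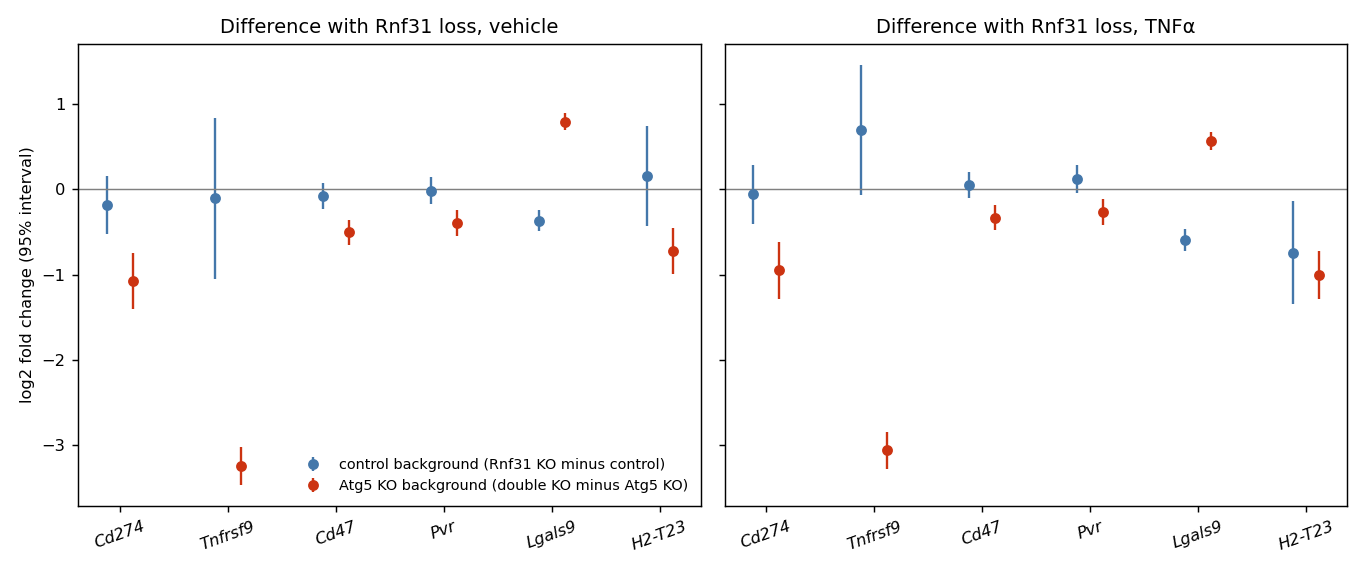
Log2 fold change with 95% interval of each of the 6 genes (x axis) between lines without and with Rnf31, in control cells (blue, Rnf31 knockout minus control) and in cells lacking Atg5 (red, double minus Atg5 knockout), with vehicle on the left and TNFα on the right. Blue points lie near 0 except Lgals9 and, with TNFα, Tnfrsf9 (0.69) and H2-T23 (-0.75). Blue intervals of Tnfrsf9 and H2-T23 are wide in both panels. Red points lie below 0 for all genes but Lgals9 (0.79 with vehicle).

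TNFα itself moved none of the 6 transcripts past the threshold in any genotype. In the edgeR test 0 of 6 members were called in each genotype, and 0.0961% of all genes were called in control, 1.17% in the Rnf31 knockout, 0% in the Atg5 knockout and 0.133% in the double knockout. The share in control depended on the tool and the libraries: the 13 genes called were 687 with DESeq2 and 0 to 2200 when a library was left out, 0 without control vehicle replicate 3 or control TNFα replicate 3 and 2200 without control vehicle replicate 1. At an unadjusted p under 0.05 (edgeR) the members numbered 0, 2, 0 and 2 in the same order. Of all 13527 genes, 2945, 1613, 1771 and 1195 passed that threshold. DESeq2 called 0 members in each genotype, beside 687, 251, 70 and 69 of all genes in the same order. The 2 members in the Rnf31 knockout were Tnfrsf9 and Lgals9, and the same 2 genes passed in the double knockout. Tnfrsf9 with TNFα had 15, 20 and 19 counts in the Rnf31 knockout (0.520, 0.618 and 0.726 CPM), above every vehicle library of that line, a difference of 1.09 ± 0.39 (adjusted p = 0.226, edgeR). In the double knockout it read 11.6, 11.4 and 9.01 CPM with TNFα, also above every vehicle library (0.37 ± 0.12, adjusted p = 0.312). Lgals9 with TNFα read 13.2, 13.1 and 12.7 CPM in the Rnf31 knockout (-0.19 ± 0.06, adjusted p = 0.151) and 99.4, 87.0 and 97.1 CPM in the double knockout (-0.14 ± 0.05, adjusted p = 0.328), all below the vehicle libraries of the same line.

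In control cells TNFα libraries overlapped vehicle libraries for 5 members and lay below them for Cd47, at 30.1, 34.4 and 33.5 CPM (-0.13 ± 0.07, adjusted p = 0.311, edgeR). The share of all genes without overlap was not counted here. The members' intervals still leave room for change: the 95% interval of the log2 response in control was -0.60 to 1.19 for Tnfrsf9, -0.18 to 0.97 for H2-T23 and -0.51 to 0.17 for Cd274, but -0.28 to 0.02 for Cd47, -0.19 to 0.14 for Pvr and -0.09 to 0.15 for Lgals9. Atg5 knockout libraries with TNFα read 87.8, 101 and 80.3 CPM for Tnfrsf9, and 15.2, 19.9 and 14.5 for H2-T23, overlapping the vehicle libraries in both cases. The difference of the response between genotypes was called for 0 of 6 members in each of 4 comparisons (edgeR), among 0.00739% (Rnf31 knockout minus control), 11.4% (Atg5 knockout minus control), 1.15% (double knockout minus control) and 0.00739% (double minus Atg5 knockout) of all genes. Members with an unadjusted p under 0.05 (edgeR) numbered 2, 0, 2 and 1, beside 1643, 3977, 2811 and 747 of all 13527 genes. DESeq2 called 0 members in each comparison, beside 56, 2337, 815 and 2 of all genes in the same order.

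**Figure D4:**
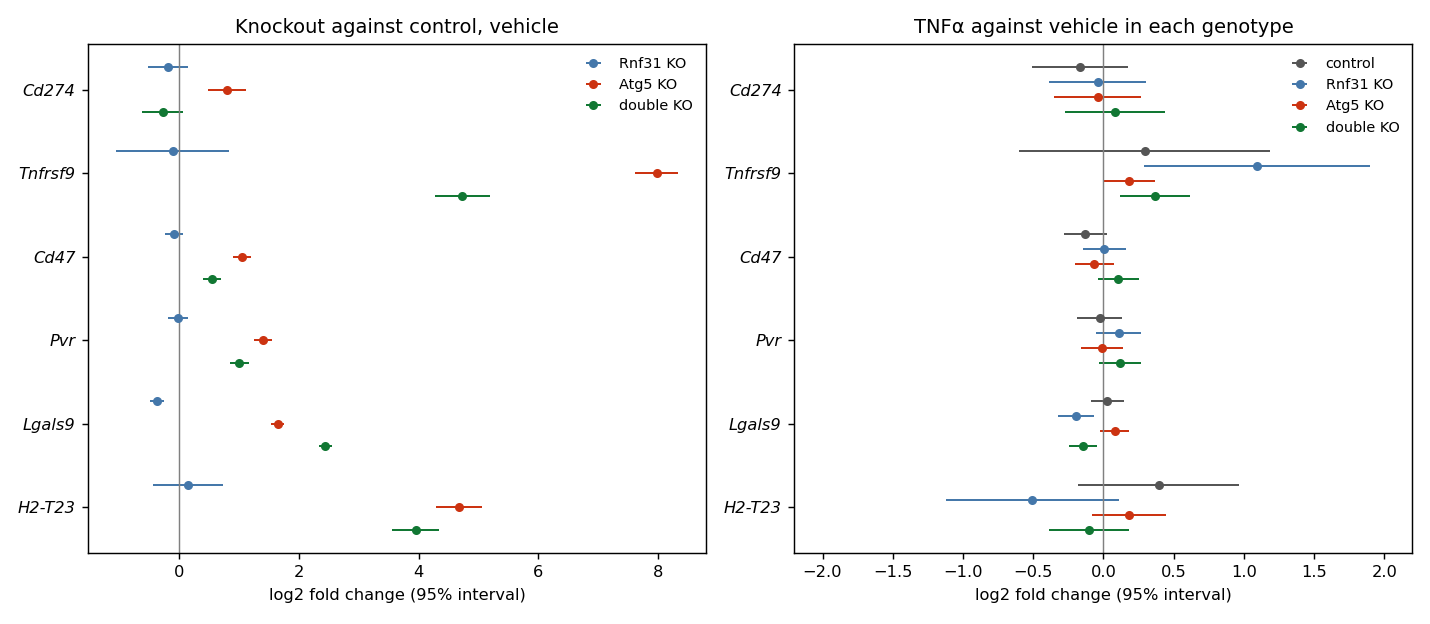
Log2 fold changes with 95% intervals of the 6 genes (rows), on the left for each knockout against control with vehicle and on the right for TNFα against vehicle in each genotype; the 2 x axes have different ranges. Intervals of the Atg5 knockout lie above 0 for all 6 genes, from 0.80 for Cd274 to 7.97 for Tnfrsf9, and on the right the point farthest from 0 is Tnfrsf9 in the Rnf31 knockout (1.09).

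Against control under TNFα, the Atg5 knockout was higher for 6 of 6 members (58.9% of genes called, 29.9% higher) and the double knockout for 5 (45.7% called, 22.6% higher), again without Cd274 (-0.02 ± 0.17, adjusted p = 0.935). The Rnf31 knockout was lower for Lgals9 by 1.51-fold (-0.59 ± 0.06, adjusted p = 7.22e-08, edgeR), where 32.3% of genes were called and 14.7% were called lower. H2-T23 lay at the edge of the threshold there. Its Rnf31 knockout libraries with TNFα read 0.451, 0.432 and 0.459 CPM (12 to 14 counts) and its control libraries 0.964, 0.714 and 0.605, without overlap, and the difference was -0.75 ± 0.29 (adjusted p = 0.0529). It passed with a filter at a mean of 1 CPM (adjusted p = 0.0437) and in 7 of the 24 fits that left out a library (adjusted p = 0.0383 to 0.0495): control vehicle replicate 2, control TNFα replicate 3, Atg5 knockout TNFα replicates 2 and 3, double knockout vehicle replicate 2, and double knockout TNFα replicates 1 and 3.

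Across the 8 groups, Tnfrsf9, Cd47, Pvr and H2-T23 were ordered alike by the means of the genotypes, with the Atg5 knockout above the double knockout and the double knockout above control and Rnf31 knockout. Lgals9 had the double knockout on top, and Cd274 had no gap below the Atg5 knockout other than that to the 6 remaining groups, each of which overlapped the next. For Pvr the 4 groups lacking Atg5 formed an unbroken series of overlapping neighbours, from 74.6 CPM (double knockout, vehicle) to 98.0 (Atg5 knockout, vehicle). Over the 24 libraries the correlation of log2(CPM + 1) between members ran from 0.303 (Cd274 with Lgals9) to 0.980 (Pvr with H2-T23). These 24 points form 8 groups of shared genotype and treatment, so such values describe differences between groups.

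Genes with the most similar pattern were sought among 10310 tested genes with a mean of at least 2 CPM, by Pearson correlation of log2(CPM + 1) over the 24 libraries. For Lgals9 they were Ifit3, Ogfr and Isg15 (r = 0.995 each), of which Ifit3 and Isg15 are interferon-stimulated genes. Pvr and H2-T23 shared their nearest gene, P4ha1, a subunit of the collagen prolyl hydroxylase (r = 0.99 for both), followed by Ier3 and Plod2 for Pvr and by Ifi211 and Apln for H2-T23. Those of Tnfrsf9 were Creld1, Glipr2 and Anxa2 (r = 0.99 each), and those of Cd47 were Slc30a9, Ctnnal1 and Txnip (r = 0.99 each). Cd274 had weaker likenesses, to Il13ra1, Fgfrl1 and Cp (r = 0.93 each). Il13ra1, a receptor chain for interleukin-13, averaged 8.99 CPM in control, 28.5 in the Atg5 knockout and 7.96 in the double knockout with vehicle, the same shape as Cd274.

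The wider pathways were described by counts over 6 lists, which were also chosen with earlier results of these data known. Traf2 stands in both the list of handling genes and the NF-kB list. Beside each count stand the shares of all genes called in the same comparison: with vehicle 62% in the Atg5 knockout and 52.4% in the double knockout against control, and with TNFα 58.9% and 45.7%. Of 10 other checkpoint and inhibitory ligands tested, 3 were higher and 5 lower in the Atg5 knockout against control with vehicle, with a median log2 fold change of -0.37 against 0.01 over all genes. The galectin gene Lgals3 rose by 0.87 ± 0.05 (adjusted p = 1.40e-14), whereas the inhibitory butyrophilin Btn2a2 fell from 13.2 CPM in control to 0.831 (adjusted p = 3.52e-18), and Nectin3, an adhesion molecule that binds CD155 among others, fell by 0.61 ± 0.07 (adjusted p = 1.44e-08, edgeR). With TNFα the list had 4 higher and 4 lower in the Atg5 knockout (median -0.14). In the double knockout it had 3 higher and 5 lower with vehicle (median -0.32) and 2 and 4 with TNFα (median 0.02), and Btn2a2 had 1 count over the 3 vehicle libraries. Of 8 costimulatory and activating NK ligands tested, 5 were higher and 1 lower in the Atg5 knockout (median 1.17), against 2 and 3 in the double knockout (median 0.54). With TNFα these counts were the same, with medians of 1.16 and -0.06. Clec2d, a ligand of an inhibitory NK receptor despite the list's name, rose by 2.74 ± 0.33 in the Atg5 knockout (adjusted p = 4.26e-08), and Raet1d, an NKG2D ligand, fell by 0.48 ± 0.10 (adjusted p = 1.00e-04).

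Of 10 genes that handle or partner the members, 6 were higher and 3 lower in the Atg5 knockout with vehicle (median 0.26), and 6 higher and 1 lower in the double knockout (median 0.26). With TNFα they numbered 3 and 2 (median 0.0037) and 3 and 3 (median 0.11). Cmtm6 rose by 0.25 in the Atg5 knockout, Thbs1, a secreted ligand of CD47, rose by 1.36 ± 0.13 (adjusted p = 6.29e-10), and Sirpa fell by 0.52. In the list of class Ib partners and peptide loading, 9 of 15 were higher and 2 lower in the Atg5 knockout (median 1.16), and 10 higher and 1 lower in the double knockout (median 1.17). With TNFα they numbered 11 and 3 (median 1.41) and 7 and 1 (median 0.96). The loading factor Tapbp rose by 2.82 ± 0.06 in the Atg5 knockout and 2.30 ± 0.06 in the double knockout (adjusted p = 1.32e-23 and 1.35e-21), and the peptide transporter subunit Tap1 by 2.92 ± 0.19 and 2.67 ± 0.19 (adjusted p = 1.62e-13 and 3.40e-12, edgeR). B2m, like Lgals9 and unlike H2-T23, was higher in the double than in the Atg5 knockout (0.41 ± 0.05, adjusted p = 2.88e-08).

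On the interferon gamma to Irf1 axis, 8 of 13 genes were higher and 1 lower in the Atg5 knockout with vehicle (median 0.70), and 7 higher and 1 lower in the double knockout (median 0.27). With TNFα they numbered 8 and 0 (median 0.74) and 7 and 1 (median 0.23). Between the double and the Atg5 knockout with vehicle, 2 of the 13 were higher, 4 lower and 7 not called (median -0.13), where 38.1% of all genes were called. There the factor Irf9 (0.64 ± 0.07, adjusted p = 2.11e-08) was higher, and Irf1 (-0.78 ± 0.07, adjusted p = 2.59e-09) and Stat3 (-0.74 ± 0.07, adjusted p = 1.91e-09, edgeR) were lower. Of the members, 1 (Lgals9) was higher and 5 were lower there. Unlike Cd274, Irf1 and Stat3 stayed above control in the double knockout with vehicle. Irf1 averaged 21.7 CPM against 9.56 in control, and Stat3 88.7 against 51.1. On the TNF receptor and NF-kB axis, 11 of 13 genes were higher and 0 lower in the Atg5 knockout against control (median 1.07), and 9 and 0 in the double knockout (median 0.32). With TNFα they numbered 11 and 0 (median 0.91) and 8 and 0 (median 0.57). Between the double and the Atg5 knockout with vehicle 10 of the 13 were lower and 1 higher (median -0.48), where 19.8% of all genes were lower. The lower ones included the inhibitor genes Nfkbia (-1.50 ± 0.11, adjusted p = 8.63e-12) and Tnfaip3 (-1.10 ± 0.17, adjusted p = 5.69e-06) and the subunit gene Relb (-0.88 ± 0.10, adjusted p = 9.86e-08). In the Rnf31 knockout against control, 7 of these 13 were higher and 1 lower (median 0.18), where 45.6% of all genes were called. Of the same 13, 3 rose with TNFα in that line, against 1.17% of all genes called. Whether any of these genes moved the members was not tested.

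The melanoma label was checked against its markers, and markers of other cells were looked for because 4-1BB is best known on T cells. All 7 melanocyte markers had counts in every group, with a summed level of 21239 to 21810 CPM in control vehicle libraries, 17828 to 18252 in the Atg5 knockout and 20206 to 20782 in the double knockout. Of 7 T cell markers only Lck had a row, at 1.11 to 1.94 CPM in control vehicle libraries and 0.417 to 0.905 in the Atg5 knockout; Ptprc, Cd3e and the rest had none and were not analysed here. Of 6 macrophage and dendritic cell markers only Lyz2 had a row, at 1.49 to 2.06 CPM in control and 1.94 to 2.42 in the Atg5 knockout. The B cell marker Cd79a and the endothelial marker Pecam1 lay at or below 0.309 and 0.368 CPM in every library, and the 2 fibroblast markers with rows, Pdgfra and Col1a1, summed to 4.25 to 5.86 CPM in control vehicle and 7.71 to 12.1 in Atg5 knockout vehicle libraries. With only 1 of 7 T cell markers measured, and at a low level, these values cannot settle whether T cells were present. The part of T cell, fibroblast and Lyz2 signals in the members' values was not tested.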

How the data were processed

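RNA from 24 B16F10 libraries was extracted with a column kit and sequenced by a commercial provider, per the labels' protocols. The values the authors deposited are expected counts per gene symbol, not normalized; this unit was inferred from whole numbers with unequal totals and from 23 rows identical to another, and rounding changed none of them. STAR, RSEM, DESeq2 and the builds GRCm38 and mm10 are named in the submitters' processing notes. The sources used here give no annotation, filter or strand setting, so reads of genes that overlap or run antisense could be mixed. A row with a blank name (0.14% of counts) was left out.

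edgeR 4.0.16 in R 4.3.3 was fitted to 8 group means over all libraries (TMM, filterByExpr, quasi-likelihood test), with Benjamini-Hochberg adjustment over 13527 genes, in 17 comparisons and 2 added after the data were seen. The biological coefficient of variation was 6.17%. The fit was tested on simulated data whose changed genes all lay above the control levels of Tnfrsf9 and H2-T23. That simulation therefore does not cover members at such low counts. Low-count folds carry 95% intervals for counting error only. Members and lists were chosen with earlier results of these data known. Named genes were the 6 members, the leading members of each list changed alike in at least 2 knockouts, 7 set by name (Tnfsf9, Cmtm6, Sirpa, Nectin2, B2m, Irf1 and Traf1, which has no row here) and the 3 genes most like each member. Some genes of this rule are not reported here. Lengths and coordinates are from GENCODE M21 (GRCm38), with a length for 98.7% of tested genes. Alternatives were RLE size factors, other filters, robust spread, a replicate block, only the groups compared, DESeq2 1.42.0, each library left out, and an added length correction.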

Additional observations from a re-analysis of the deposited data

Results flagged for a closer look

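The difference between lines without and with Rnf31 was not the same in the Atg5 knockout and control backgrounds, by a test of the difference itself (edgeR quasi-likelihood test, adjusted over all genes, a comparison added after the data were seen; values are log2, Atg5 knockout background minus control background). With vehicle it was -0.89 for Cd274 (adjusted p = 0.00282), -3.14 for Tnfrsf9 (adjusted p = 2.67e-05), -0.42 for Cd47 (adjusted p = 0.00145) and -0.38 for Pvr (adjusted p = 0.00592). It was 1.16 for Lgals9 (adjusted p = 4.49e-12) and -0.88 for H2-T23 (adjusted p = 0.0285). Tnfrsf9 had only 27 summed counts in control and 24 in the Rnf31 knockout with vehicle, which left little room for a fall there. The H2-T23 call rests on few counts in control and Rnf31 knockout libraries: it missed the threshold when control vehicle replicate 1 (adjusted p = 0.0668) or 3 (0.0896) was left out, and likewise Rnf31 knockout vehicle replicate 2 (0.121) or 3 (0.0620), or double knockout vehicle replicate 1 (0.0529).

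With TNFα the same difference was -0.89 for Cd274 (adjusted p = 0.00476), -3.75 for Tnfrsf9 (adjusted p = 3.73e-08), -0.39 for Cd47 (adjusted p = 0.00503), -0.39 for Pvr (adjusted p = 0.00757) and 1.16 for Lgals9 (adjusted p = 8.27e-12, edgeR). The libraries with TNFα are separate from those with vehicle, and each set has its own control group of 3. Both sets come from the same 4 lines and share an estimate of the spread, so they do not repeat the comparison of genotypes independently. Of all genes tested, 40.7% were called with vehicle and 30.3% with TNFα, and gene loss and other differences between the 4 lines cannot be told apart.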

How the results depend on the processing

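Of 52 called member results, 50 kept their direction and side of the threshold under every alternative run and none reversed. The exceptions were Pvr in the double against the Atg5 knockout with TNFα, and the H2-T23 difference of Rnf31 loss with vehicle, both given above. Every member result that changed sign was uncalled. Few counts limit Tnfrsf9 and H2-T23 in control and Rnf31 knockout libraries. RLE size factors moved no median of all genes by over 0.1. By the rule used, replicate numbers were not taken to pair the libraries: 0 of 28 pairs of groups had all 3 correlations of same-numbered libraries over 0.1. The correlations ran from -0.23 to 0.19, and 11 of 84 were over 0.1. Differently numbered libraries were not compared, so this check cannot settle whether replicates were paired. The cause of the changes below was not tested.

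With the replicate block, genes called numbered 182 for the TNFα response in control (13 without it), 34 for that in the double knockout (18), while response differences gave 11 for the Rnf31 knockout (1 without it), 533 for the double knockout (156) and 2 for the double against the Atg5 knockout (1). The block called 2 members in the Rnf31 knockout against control with TNFα, adding H2-T23 (-0.76, adjusted p = 0.0394), as did the filter at a mean of 1 CPM (2 members, -0.76). For the response in control, genes called numbered 94 without a filter, 117 with the 1 CPM filter, 68 with a robust spread, 0 in a fit of only the groups compared, 687 with DESeq2 and 0 with the length correction. Fits of only the groups compared called 331, 28 and 8 genes for the response in the Rnf31, Atg5 and double knockouts, and DESeq2 called 251, 70 and 69. For the response difference of the Rnf31 knockout minus control, a robust spread gave 3 genes, DESeq2 56 and the length correction 13. For that of the Atg5 knockout (1536 genes) the groups compared alone gave 504, DESeq2 2337 and the length correction 264. For that of the double knockout these gave 5, 815 and 10. For the double minus the Atg5 knockout, no filter gave 2 genes, the 1 CPM filter 0, the groups compared alone 2 and DESeq2 2.

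The length correction called 2 members in the Rnf31 knockout against control with vehicle, adding Cd47 (-0.21, adjusted p = 0.0282). It reversed uncalled values of Cd47 (response in the Rnf31 knockout, -0.019; Rnf31 knockout against control with TNFα, -0.062), Cd274 (double knockout against control with TNFα, 0.012), and the response difference of the Atg5 knockout for Pvr (-0.014) and Lgals9 (-0.074).

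With each library left out in turn, genes called ranged from 0 to 2200 for the response in control (the highest without control vehicle replicate 1, 0 without replicate 3), 72 to 226 in the Rnf31 knockout, 0 to 84 in the Atg5 knockout and 0 to 58 in the double knockout (84 and 58 both without control vehicle replicate 2). For the response differences they ranged from 0 to 113 (Rnf31 knockout minus control), 293 to 3155 (Atg5 knockout minus control), 13 to 1773 (double knockout minus control) and 0 to 3 (double minus Atg5 knockout), with 3155 and 1773 both without control vehicle replicate 1. Members called in the Rnf31 knockout against control with TNFα ranged from 1 to 2, while all genes called there ranged from 3225 to 4799. Uncalled log2 responses ranged in control from -0.17 to 0.83 for Tnfrsf9 and -0.077 to 0.027 for Pvr, in the Rnf31 knockout from -0.11 to 0.016 for Cd274 and -0.026 to 0.028 for Cd47, in the Atg5 knockout from -0.12 to 0.034 for Cd274 and -0.052 to 0.058 for Pvr, and in the double knockout from -0.10 to 0.19 for Cd274. The Rnf31 knockout against control with vehicle ranged from -0.57 to 0.43 for Tnfrsf9, -0.065 to 0.040 for Pvr and -0.0024 to 0.45 for H2-T23, and with TNFα from -0.17 to 0.13 for Cd274 and -0.0040 to 0.091 for Cd47. Cd274 ranged from -0.19 to 0.13 in the double against the Rnf31 knockout with vehicle and from -0.12 to 0.17 against control with TNFα. Response differences of the Atg5 knockout ranged from -0.65 to 0.36 for Tnfrsf9, -0.0042 to 0.12 for Cd47 and -0.038 to 0.079 for Pvr. That of Tnfrsf9 in the double knockout minus control ranged from -0.46 to 0.54, and that of Cd274 in the double minus the Atg5 knockout from -0.058 to 0.23.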
